A study of Mus musculus with 24 samples.

Results

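The genes described here encode the nuclear-coded subunits of the mitochondrial respiratory chain and of ATP synthase, measured in mouse liver after ethanol feeding. They were chosen by symbol: every gene whose symbol starts with Ndufa, Ndufb, Ndufc, Ndufs, Ndufv, Uqcr, Cox4 to Cox8 or Atp5, and Sdha, Sdhb, Sdhc and Sdhd, without the Ndufaf assembly factors and without pseudogenes. Of 88 such genes in the RefSeq gene table, 83 had a probe on the array, out of 17026 named genes with a probe. The 83 genes had 103 probes. Assigned to complexes by the prefix of the symbol alone, they fell into 36 genes of complex I, 4 of complex II, 8 of complex III, 18 of complex IV and 17 of complex V. Ndufa11, Ndufa4l2, Ndufb1, Ndufb4b and Ndufb4c were not measured here. All 83 passed the filter on dim probes, as did 16148 of the named genes.

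Total liver RNA of male C57BL/6N mice was labelled with Cy5, a commercial mouse reference RNA was labelled with Cy3, and each of 24 samples was hybridized with the reference on 1 Agilent array. The values are log2 of Cy5 over Cy3 after each array was normalised, which centres the spots of an array near 0. A value of 0 thus means equal normalised signal in liver sample and reference, and 1 that the sample gave the doubled normalised signal. The 6 groups were mice pair-fed for 10 days (P10d, 3 arrays), mice fed ethanol for 10 days and then given a binge of 5 g/kg ethanol (E10d1B, 3 arrays), mice pair-fed for 8 weeks (P8w, 4 arrays), mice fed ethanol for 8 weeks (E8w, 5 arrays), mice fed ethanol for 8 weeks and given a binge (E8w1B, 5 arrays), and mice fed ethanol for 8 weeks with binges 2 times per week (E8wMB, 4 arrays). The binge dose was 5 g/kg in E8w1B and E8wMB as well. Pair-fed mice receive a control diet in amounts matched to the ethanol-fed mice. The series was titled for the role of fat-specific protein 27, a lipid droplet protein, in alcoholic liver injury. The labels do not say that the arrays of a group came from separate animals, so each p-value speaks of the spread among the arrays and no more.

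The respiratory chain passes electrons from NADH through complex I and from succinate through complex II to ubiquinone, then through complex III and cytochrome c to complex IV, which reduces oxygen to water. Complexes I, III and IV pump protons across the inner mitochondrial membrane, and complex V, the ATP synthase, uses the returning protons to make ATP. In the liver the chain reoxidizes the NADH that alcohol and aldehyde dehydrogenases form from ethanol, and changes of liver mitochondria are a long-studied feature of alcohol feeding.

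Promoters are shown for 4 genes whose values are described below: Cox6b2, the gene with the largest difference, Ndufa6 and Ndufs8, which fell after the binge at 8 weeks, and Cox6a1, which rose there. Each line gives the 250 bases before the RefSeq transcription start in GRCm38.p6, on the gene's strand, with matches to the motifs searched in capitals. The windows are chr7:4753095-4753344 for Cox6b2, chr15:82354292-82354541 for Ndufa6, chr19:3912775-3913024 for Ndufs8 and chr5:115348959-115349208 for Cox6a1, all on the minus strand.
Cox6b2: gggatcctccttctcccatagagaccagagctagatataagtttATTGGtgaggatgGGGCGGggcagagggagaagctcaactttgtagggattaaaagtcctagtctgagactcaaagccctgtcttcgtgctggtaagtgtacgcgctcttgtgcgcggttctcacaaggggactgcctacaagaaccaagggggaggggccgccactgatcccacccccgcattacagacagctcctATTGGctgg
Ndufa6: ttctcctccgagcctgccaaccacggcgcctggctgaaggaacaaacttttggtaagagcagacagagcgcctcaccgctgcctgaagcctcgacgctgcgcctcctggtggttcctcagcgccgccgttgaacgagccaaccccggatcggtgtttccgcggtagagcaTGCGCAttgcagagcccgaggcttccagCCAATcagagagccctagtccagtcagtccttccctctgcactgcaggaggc
Ndufs8: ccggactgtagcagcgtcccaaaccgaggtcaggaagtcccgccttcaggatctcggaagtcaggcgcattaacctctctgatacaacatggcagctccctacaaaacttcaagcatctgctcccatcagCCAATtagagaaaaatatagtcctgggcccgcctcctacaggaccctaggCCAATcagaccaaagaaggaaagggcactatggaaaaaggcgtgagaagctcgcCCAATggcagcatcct
Cox6a1: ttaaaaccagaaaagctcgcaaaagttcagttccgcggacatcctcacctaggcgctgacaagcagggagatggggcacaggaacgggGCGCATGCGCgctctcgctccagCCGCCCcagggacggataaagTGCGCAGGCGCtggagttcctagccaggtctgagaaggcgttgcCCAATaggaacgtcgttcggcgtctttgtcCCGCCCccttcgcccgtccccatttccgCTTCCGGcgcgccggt
Cox6a1 held 3 matches to the NRF1 site CGCANGCGC, a pair of them overlapping on opposite strands, and the match nearest the start overlapped the core TGCGCA. It also held an ETS site, a CCAAT box and 2 GC boxes. Ndufa6 held the NRF1 core TGCGCA and a CCAAT box. Ndufs8 held 3 CCAAT boxes, and Cox6b2 held 2 CCAAT boxes and a GC box, with no match to either NRF1 motif.

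Both strands were searched, and RefSeq promoters of the same length were found for 68 of the 83 genes, 73 promoters in all. NRF1, nuclear respiratory factor 1, and GABP, which binds ETS sites, are known activators of respiratory chain genes. The NRF1 site was in 17 of the 73 promoters (23.3%) and in 5.19% of all 32851 promoters in the table, and the core TGCGCA was in 20.5% against 6.43%. The ETS site CCGGAAG was in 12 of the 73 (16.4%) against 6.91%, the site AAGGTCA of the oestrogen-related receptors in 5 (6.85%) against 4.08%, and the YY1 site AAGATGGC in 1 (1.37%) against 1.56%. CCAAT was in 42.5% against 33.8%, and the GC box, with the letters GGGCGG, in 35.6% against 32.7%. These matches are descriptions of the letters in the windows.

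The median signal of an array ran from 95.5 to 247 in Cy5 and from 161.5 to 505 in Cy3, and 70.7% to 86.83% of the spots were well above background in Cy5. No spot was saturated. P8w, E8w and E8w1B were scanned together on slides 1 to 5, P10d and E10d1B in a scan of their own, and E8wMB in another scan on a different scanner. E8wMB therefore differs from every other group in its scan as well as its treatment, as do the 8-week and 10-day groups, and for these comparisons scan and group cannot be told apart. Of the tissue markers, albumin (Alb) had a mean log2 signal of 17.25 in Cy5 and 16.52 in Cy3, so it was also high in the reference. The muscle genes Ckm (6.62) and Mb (6.28) were low in Cy5, but the muscle gene Myh6 was at 10.03. The testis markers Prm1 (11.74) and Prm2 (10.56) were near Ttr (11.01) and Hnf4a (10.74), the lowest of the hepatocyte markers in Cy5, and Tnp1 was at 6.71. The hepatocyte markers Apoa1 (16.99), Tat (15.00) and Asgr1 (12.84) were higher than these. The markers outside liver were thus not all dim.

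The median normalised ratio of the subunit genes was slightly above 0 on every array except E10d1B replicate 1 (-0.04) and E8wMB replicate 3 (-0.01). The median over the subunit genes of an array was between 0.05 and 0.16 in P8w, 0.04 and 0.16 in P10d, 0.09 and 0.17 in E8w, -0.04 and 0.10 in E10d1B, 0.02 and 0.23 in E8w1B, and -0.01 and 0.10 in E8wMB, while the median over all genes lay between -0.03 and 0.00 on every array. The groups overlapped in this median. The 5 E8w1B arrays were spread most: replicates 3 and 4 had subunit medians of 0.22 and 0.23, and replicates 1, 2 and 5 had 0.06, 0.08 and 0.02.

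**Figure D1:**
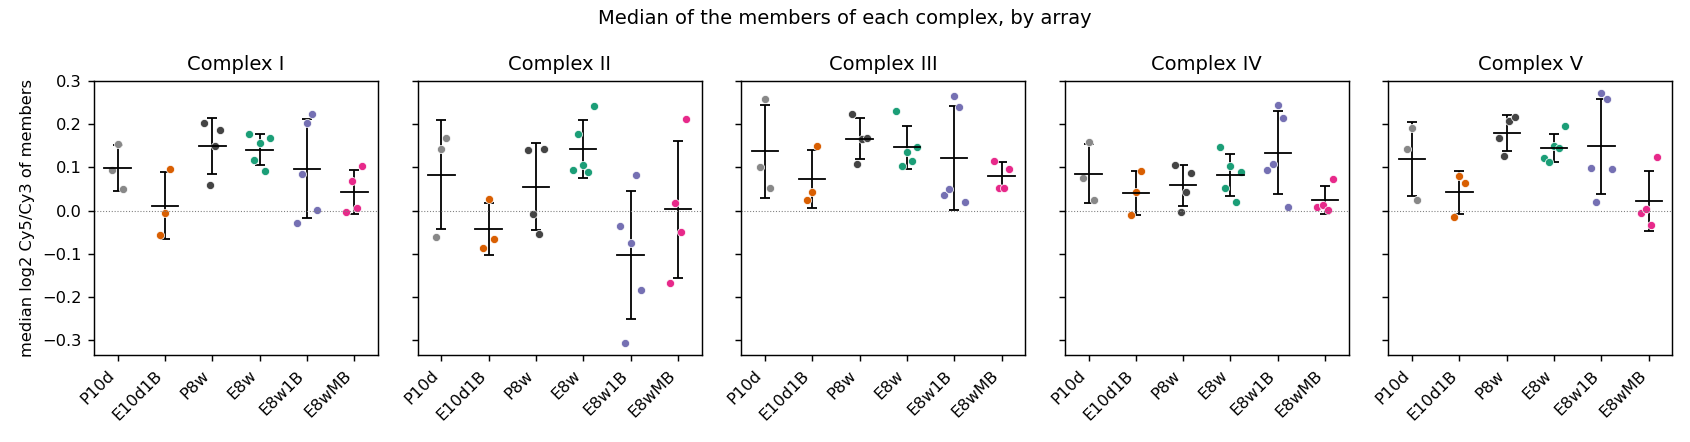
Median log2 Cy5/Cy3 over the measured subunit genes of each complex (vertical axis) in the 6 groups, 1 point per array, with a long line at the group mean and bars of 1 SD. Arrays 3 and 4 of E8w1B sit at 0.20 to 0.27 in complexes I, III, IV and V, above the other 3 arrays of that group (-0.03 to 0.11), and each point of complex II rests on at most 4 genes.

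The first comparison asked what 10 days of ethanol feeding followed by a binge did to the subunits. After 10 days and a binge 1 subunit gene fell, Cox6b2, and 0 rose, of 81 tested, while 7.18% of all 15672 genes tested were called (adjusted p under 0.05 in limma), 2.89% lower and 4.29% higher. Cox6b2 encodes the testis-type isoform of subunit VIb of cytochrome c oxidase. The other subunits differed little: the median difference between E10d1B and P10d was -0.06 over the subunit genes and -0.00 over all genes, with 59 subunit genes on the negative side and 22 on the positive. In whole-liver RNA, fewer cells of a type and less RNA per cell cannot be told apart.

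Cox6b2 was 0.19, 0.91 and 0.21 in the 3 P10d arrays and -1.07, -1.16 and -0.69 in the 3 E10d1B arrays. The groups did not overlap, and P10d replicate 2 was the highest of all 24 arrays. The difference was -1.41 ± 0.16 (SE; 95% interval -1.74 to -1.08; n = 3 and 3; limma adjusted p = 8.4e-06), and with slides blocked it was -1.48 (adjusted p = 0.0019).

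The fall was seen in Cy5 alone (-1.37), with a Cy3 difference of 0.04. In Cy5 the normalised log2 signal was 8.37, 9.11 and 8.30 in P10d and between 7.06 and 7.68 on every other array, so P10d was the group that stood apart in the liver channel. The range outside P10d was low, near the mean Cy5 signals of the muscle markers Acta1 (7.42) and Tnnt2 (7.39). The fall was called under all 14 processing alternatives (-1.86 to -1.32), among them the limit to probes well above background on every array. It was also called with each array left out in turn (-1.55 to -1.17). Of the testis markers Prm1, Prm2 and Tnp1, sperm chromatin proteins, 0 of 3 were called, with a median difference of 0.05. Their array medians ran from -0.33 to -0.23 in P10d and from -0.26 to -0.09 in E10d1B.

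At 8 weeks Cox6b2 was -0.14, -0.30, -0.48 and -0.34 in P8w, and -0.64, -0.65, -0.31, -0.43 and -0.32 in E8w. In E8w1B it was -0.05, -0.32, 0.02, -0.07 and -0.06, and in E8wMB 0.08, -0.23, 0.00 and -0.07. The 8-week pair-fed arrays thus lay below the 10-day pair-fed arrays, and the E8w1B arrays were mostly above E8w. The order of the group means, from the lowest, was E10d1B (-0.97), E8w (-0.47), P8w (-0.31), E8w1B (-0.10), E8wMB (-0.05) and P10d (0.44), and among neighbours in this order E8w and P8w, P8w and E8w1B, and E8w1B and E8wMB overlapped. This order spans 3 scans. The Cy3 signal of Cox6b2 was 8.09 to 8.23 on the P10d and E10d1B arrays, which shared a scan, and 7.19 to 7.90 on all others.

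The effect of ethanol and binge on Cox6b2 was opposite in sign at the 2 durations, 0.22 (adjusted p = 0.30) at 8 weeks against -1.41 at 10 days. The difference of the effects was 1.63 ± 0.21 (limma adjusted p = 4.6e-05), the only subunit gene called of 74 tested, where 3.37% of all genes were called (0.959% higher, 2.41% lower). P8w and P10d differed by -0.75 ± 0.15 (limma adjusted p = 0.012), also the only subunit gene called of 74, against 1.52% of all genes (1.05% higher, 0.469% lower). P8w lay above P10d on every array for 5 of the 74 genes and below for 3, against 9.01% and 7.57% of all genes. Without P10d replicate 2 the Cox6b2 difference between P8w and P10d was -0.52 (adjusted p = 0.11), and the reference channel differed by -0.52 between these groups, beside -1.27 in Cy5. Scan and duration cannot be told apart here.

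**Figure D2:**
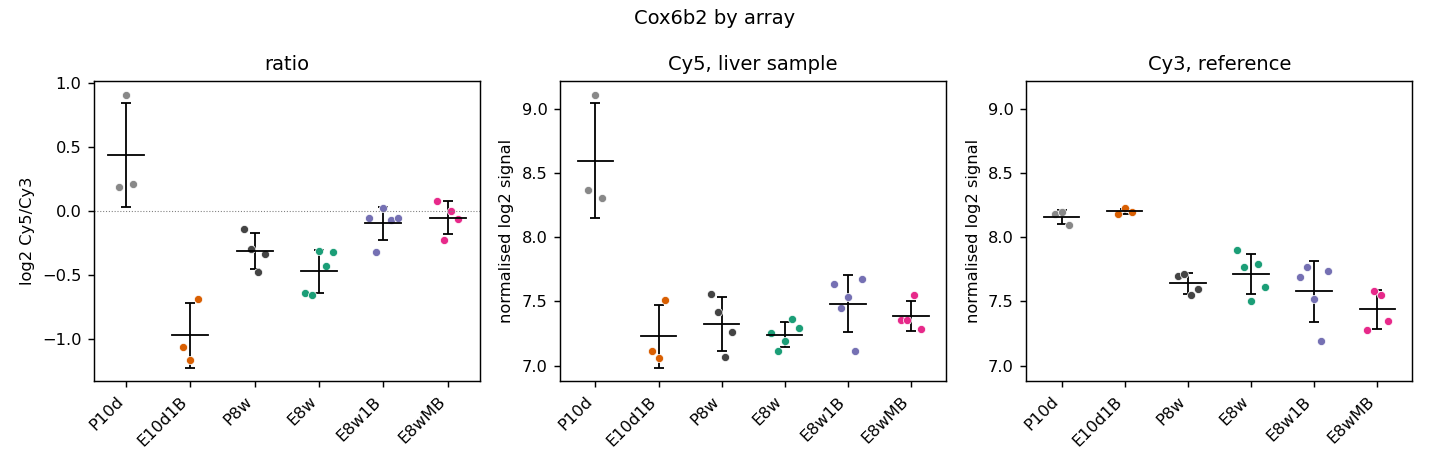
Cox6b2 in the 6 groups, 1 point per array, with group means and bars of 1 SD: log2 Cy5/Cy3 on the left, the normalised log2 signal of the liver channel Cy5 in the middle and of the reference channel Cy3 on the right. The 3 E10d1B arrays (-1.16 to -0.69) have the lowest ratios of all groups, and in Cy5 the 3 P10d arrays (8.30 to 9.11) stand above all other arrays. In Cy3 the P10d and E10d1B arrays (8.09 to 8.23) stand above all others (7.19 to 7.90).

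In complex I, 35 genes were tested at 10 days, with a median of -0.06, 28 of them negative. Ndufs7, an iron-sulphur subunit of the arm that hands electrons to ubiquinone, was 0.09, 0.27 and -0.10 in P10d and -0.52, -0.38 and -0.04 in E10d1B, a difference of -0.40 (limma adjusted p = 0.052). Ndufa6, a small accessory subunit, was 0.31, 0.25 and 0.17 in P10d and -0.04, -0.15 and -0.24 in E10d1B, a difference of -0.39 (adjusted p = 0.060). In complex III, Uqcrfs1, the Rieske iron-sulphur protein, was 0.41, 0.76 and 0.47 in P10d and 0.20, 0.23 and 0.12 in E10d1B, a difference of -0.37 (adjusted p = 0.066). Ndufa6 and Uqcrfs1 did not overlap between the groups and Ndufs7 did, and none of the 3 passed the threshold. With slides as a random block Ndufa6 and Ndufs7 were called (adjusted p = 0.047 for each), with a replicate block Ndufs7 was (adjusted p = 0.035), and with array weights all 3 were (adjusted p = 0.021, 0.033 and 0.041 for Ndufa6, Ndufs7 and Uqcrfs1). Ndufs7 was also called without P10d replicate 3 (-0.50) or E10d1B replicate 3 (-0.54), and Ndufa6 in the deposited log2 table (-0.51). In all, 17 of 81 subunit genes lay lower in every E10d1B array than in every P10d array, and 2 lay higher, against 12.6% and 13.8% of all genes.

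Smaller differences, with intervals that included 0, were measured for other catalytic, core and common subunits at 10 days. Atp5a1, the alpha subunit of ATP synthase, differed by 0.04 (95% interval -0.16 to 0.25), Atp5b, the catalytic beta subunit, by -0.18 (-0.41 to 0.05), and Uqcrc1, a core protein of complex III, by -0.09 (-0.40 to 0.22). Of complex IV, Cox4i1, the common isoform of subunit IV, differed by -0.14 (-0.33 to 0.06) and Cox6b1, the common isoform of VIb, by -0.17 (-0.35 to 0.02). The medians were -0.04 in complex II, -0.09 in III, -0.06 in IV and -0.07 in V. For 76 of the 81 genes the 95% interval lay within 0.5 of 0 in either direction, that is, within a 1.41-fold difference.

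Cell markers also moved at 10 days. Of 7 sinusoidal endothelial markers 3 were higher in E10d1B, among them the hyaluronan receptor Lyve1 by 1.24, and the array medians of the list ran from -0.39 to -0.18 in P10d and from -0.13 to 0.33 in E10d1B. The array medians were also higher for hepatocytes (0.13 to 0.25, then 0.40 to 0.84) and Kupffer cells (-0.27 to -0.08, then 0.10 to 0.21). Those of stellate cells ran from -0.47 to -0.03 and from 0.02 to 0.17. Those of the cholangiocyte, neutrophil and lymphocyte lists overlapped between the groups. Of the other lists, 2 of 7 stellate cell, 2 of 6 lymphocyte and 1 of 5 hepatocyte markers were higher. Of all genes 4.29% were higher and 2.89% lower. Their part in the results on subunits was not tested.

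Ethanol feeding alone for 8 weeks changed no subunit gene past the threshold. Of 76 tested, 0 were called in limma, where 0.153% of all genes were called (0.0638% higher, 0.0893% lower), and at an unadjusted p under 0.05 the count was 0 higher and 1 lower; the 14 alternatives called 0 as well. The median difference of E8w from P8w was 0.00, with 38 genes on either side, and 0.01 over all genes. All 76 intervals lay within 0.5 of 0. By complex the medians were 0.00 (I), 0.09 (II, 2 genes tested), -0.02 (III), 0.01 (IV) and -0.01 (V).

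The gene with the unadjusted call was Atp5g2, which encodes the membrane-ring subunit c of ATP synthase. It was 0.14, 0.34, 0.14 and 0.19 in P8w and 0.00, -0.01, -0.05, 0.00 and 0.02 in E8w. Every E8w array was below every P8w array, which held for 1 subunit gene and for 2.77% of all genes (1 gene and 2% in the other direction), and the difference was -0.21 ± 0.07 (limma adjusted p = 0.36).

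A binge after 8 weeks of ethanol was the comparison in which most subunits moved within 1 scan. Against P8w, 5 genes fell and 2 rose in E8w1B of 76 tested (limma, adjusted p under 0.05). The share of all genes called was 16.3%, 7.59% higher and 8.75% lower, and that of the subunits was 9.21%. The genes that fell were Ndufa6, Ndufs8 and Ndufa9 of complex I, Uqcrfs1 of complex III and Atp5g2 of complex V, and those that rose were Uqcr10 of complex III and Cox6a1 of complex IV. The median was 0.02 for the subunits and 0.02 for all genes, with 40 subunit genes positive and 36 negative.

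Ndufs8, an iron-sulphur protein of the arm of complex I that leads electrons to ubiquinone, was 0.37, 0.32, 0.18 and 0.30 in P8w, and 0.33, 0.54, 0.13, 0.39 and 0.30 in E8w. In E8w1B it was -0.18, -0.15, -0.07, 0.07 and -0.17. All 5 binge arrays were below all 9 other 8-week arrays of that scan. The difference from P8w was -0.39 ± 0.08 (limma adjusted p = 0.0021) and from E8w -0.44 ± 0.08 (adjusted p = 0.00042). In E8wMB it was 0.03, 0.09 and 0.29 on the 3 arrays measured, and at 10 days the groups overlapped, with a difference of -0.00 (95% interval -0.21 to 0.21).

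Ndufa6 was 0.33, 0.27, 0.27 and 0.33 in P8w, and 0.40, 0.16, 0.30, 0.09 and 0.28 in E8w. In E8w1B it was -0.43, 0.14, 0.07, 0.09 and -0.35. The binge arrays were all below P8w and overlapped E8w, and replicates 1 and 5 were far below the other 3. The difference was -0.40 ± 0.10 from P8w (limma adjusted p = 0.0084) and -0.34 ± 0.10 from E8w (adjusted p = 0.015), the second of which missed the threshold without E8w1B replicate 1 (-0.26, adjusted p = 0.053) or 5 (-0.28, adjusted p = 0.057). Ndufa9, an accessory subunit named after its values were seen, fell by 0.24 against P8w (adjusted p = 0.049), and the call was lost without any of P8w replicates 1 to 4 or E8w1B replicates 1 to 3 (-0.27 to -0.19, adjusted p up to 0.17).

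Atp5g2 was -0.37, -0.13, -0.15, -0.07 and -0.14 in E8w1B, below every P8w and every E8w array. The difference from P8w was -0.38 ± 0.07 (limma adjusted p = 0.0005), and that from E8w was -0.17 ± 0.07 (adjusted p = 0.086). The second probe of this gene gave -0.19 (adjusted p = 0.085) against P8w. The 3 genes for subunit c encode the same mature protein, and their transcripts are similar, so these probes may also have bound the transcripts of the other 2.

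Uqcrfs1 was 0.35, 0.28, 0.34 and 0.67 in P8w, and 0.53, 0.53, 0.27, 0.23 and 0.37 in E8w. In E8w1B it was -0.00, 0.05, 0.17, 0.25 and -0.01, below every P8w array and overlapping E8w. It fell by 0.32 against P8w (limma adjusted p = 0.028) and by 0.30 against E8w (adjusted p = 0.029). Both missed the threshold when slides were blocked (adjusted p = 0.065 and 0.060), and with P8w replicate 4 left out the first was -0.23 (adjusted p = 0.14). Without E8w1B replicate 1, 2 or 5 both missed the threshold (-0.31 to -0.27), as did the second without E8w replicate 1 or 2 (-0.26).

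Uqcr10, a small subunit of complex III, was 0.16, -0.05, 0.03 and 0.11 in P8w, and 0.18, -0.01, 0.08, 0.06 and 0.10 in E8w. In E8w1B it was 0.25, 0.38, 0.49, 0.49 and 0.20, above every array of both. The difference was 0.30 ± 0.08 from P8w (limma adjusted p = 0.013) and 0.28 ± 0.08 from E8w (adjusted p = 0.013). Between P8w and E8w1B, Cy5 alone differed by 0.01 and Cy3 by -0.29, and without P8w replicate 2 the adjusted p was 0.054.

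Cox6a1, the common isoform of subunit VIa of cytochrome c oxidase, was 0.14, -0.02, 0.04 and 0.11 in P8w, and 0.23, 0.01, 0.14, -0.00 and 0.02 in E8w. In E8w1B it was 0.14, 0.37, 0.55, 0.31 and 0.20. The groups overlapped, and E8w1B replicate 3 was highest. The rises of 0.25 against P8w (limma adjusted p = 0.040) and 0.24 against E8w (adjusted p = 0.035) missed the threshold when slides were blocked (adjusted p = 0.077 and 0.061) and without E8w1B replicate 2, 3 or 4 (lowest without replicate 3, at 0.19 and 0.18). The first was also lost without P8w replicate 2, 3 or 4 and the second without E8w replicate 2, 4 or 5 (0.22 to 0.26), and Cy5 alone differed from P8w by 0.02. Neither rise of a subunit against P8w was called in the log ratios of the scanner software (0 higher, 4 lower), in the deposited log2 table (0 higher, 6 lower), in Cy5 alone (0 higher, 7 lower) or with each array centred on its median. That centring called 0 subunit genes in either direction, so the 5 falls missed the threshold there too.

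**Figure D3:**
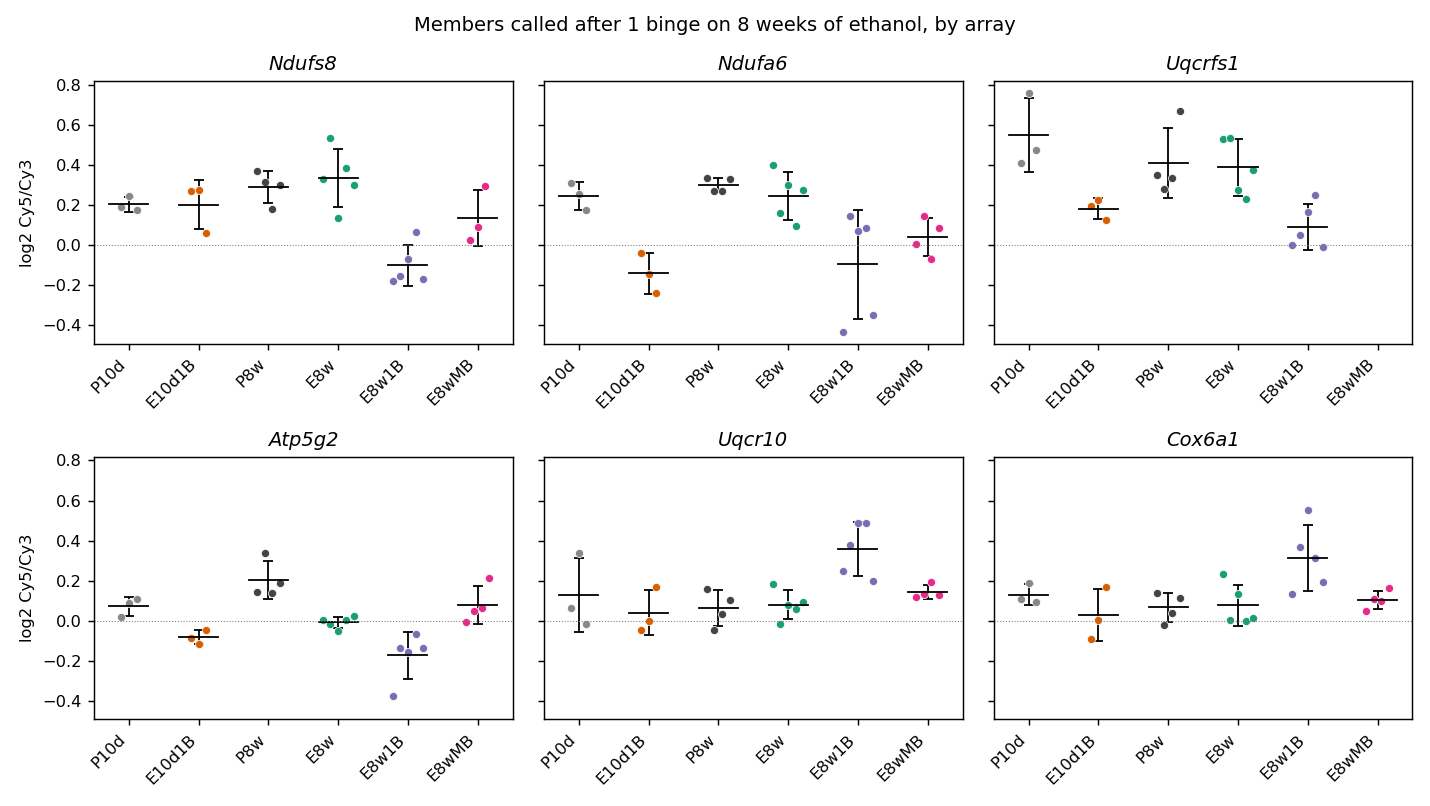
Log2 Cy5/Cy3 of Ndufs8, Ndufa6, Uqcrfs1, Atp5g2, Uqcr10 and Cox6a1 in the 6 groups, 1 point per array, with group means and bars of 1 SD. Ndufs8 and Atp5g2 in E8w1B lie below all P8w and E8w arrays, Uqcr10 lies above them, and Uqcrfs1 has no point in E8wMB, where its spots were marked on every array.

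Against E8w the binge moved 8 of 79 subunit genes (10.1%), where 16.5% of all genes were called (8.03% higher, 8.42% lower). Ndufs8, Ndufa6 and Uqcrfs1 fell, as did Ndufb10 (-0.32, adjusted p = 0.021) and Ndufb5 (-0.27, adjusted p = 0.030), membrane-arm subunits of complex I named after their values were seen. Ndufb10 was measured on 4 E8w and 3 E8w1B arrays, and its call was lost without E8w replicate 5 or E8w1B replicate 1 or 2 (-0.31 to -0.26). That of Ndufb5 was lost without E8w replicate 1, 2, 3 or 5 or E8w1B replicate 1 or 3 (-0.27 to -0.22), and with slides blocked (adjusted p = 0.059). Uqcr10, Cox6a1 and Cox6b2 rose, the last by 0.38 ± 0.12 (limma adjusted p = 0.038, and 0.061 when slides were blocked), and its call was lost without E8w replicate 1, 2 or 4 or E8w1B replicate 1, 3, 4 or 5 (0.33 to 0.39). Groups did not overlap for 5 genes lower and 1 higher, against 6.3% and 6% of all genes.

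By complex, the medians of E8w1B against P8w were -0.02 in I, -0.04 in II (2 genes tested), -0.07 in III, 0.10 in IV and -0.04 in V. In complex IV 16 of 18 genes were positive, but the median was -0.07 in Cy5 alone. Groups did not overlap for 7 genes lower and 1 higher of the 76, against 7.87% and 6.45% of all genes. Some of the common subunits differed by less than the called genes: Atp5a1 differed by -0.06 (95% interval -0.24 to 0.12), Atp5b by -0.05 (-0.22 to 0.11), Cox4i1 by 0.14 (-0.02 to 0.30) and Sdhc, a membrane anchor of complex II, by -0.16 (-0.36 to 0.05). Uqcrc1 differed by -0.22 (-0.45 to 0.01; limma adjusted p = 0.20).

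The tissue-restricted isoforms of complex IV other than Cox6b2 did not pass the threshold at either duration. Cox4i2, the lung-type isoform, differed by -0.06 (95% interval -0.31 to 0.19) at 10 days and -0.10 (-0.31 to 0.10) at 8 weeks, and Cox6a2, a heart and muscle isoform, by 0.10 (-0.18 to 0.38) and 0.10 (-0.11 to 0.31). Cox7a1, also of heart and muscle, differed by -0.14 (-0.49 to 0.21) and 0.15 (-0.14 to 0.44), and Cox8b by -0.11 (-0.39 to 0.17) and 0.18 (-0.05 to 0.41). Cox7a1 was -0.56 in E8w1B replicate 1 and 0.37, 0.32, 0.31 and -0.09 in the others. Without replicate 1 it differed from P8w by 0.31, and from E8w by 0.38 (limma adjusted p = 0.012), beside 0.22 (adjusted p = 0.31) with all arrays. Cox8c and Cox7b2, known from testis, were well above background on 13 and 14 of the 24 arrays.

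Sdha and Sdhb, the subunits of complex II that carry its flavin and iron-sulphur clusters, were not tested at 8 weeks, because spots that the scanner software marked as uneven left them measured on 9 and 6 of the 24 arrays. With marked spots kept all 83 genes were tested, and 11 fell and 3 rose against P8w, where 17.8% of all genes were called (8.12% higher, 9.64% lower). Against E8w 7 fell and 3 rose, where 17.4% of all genes were called (8.55% higher, 8.83% lower). Sdhb, the iron-sulphur subunit of succinate dehydrogenase, was then 0.24, 0.22, 0.10 and 0.45 in P8w, 0.10, 0.30, 0.12, 0.25 and 0.28 in E8w, and -0.16, -0.25, -0.12, 0.00 and -0.13 in E8w1B. All binge arrays were below the others. It fell by 0.38 against P8w (limma adjusted p = 0.001) and by 0.34 against E8w (adjusted p = 0.0016).

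Ndufs1, the largest iron-sulphur subunit of complex I, was -0.01 and 0.08 on the 2 P8w arrays measured and -0.18, -0.40 and 0.09 on the 3 E8w1B arrays measured. These overlapped, with a difference of -0.20 (limma adjusted p = 0.41), and with marked spots kept the difference was -0.32 (adjusted p = 0.034). With marked spots kept Ndufs3 fell by 0.26 (adjusted p = 0.013), and Sdha differed by -0.30 (adjusted p = 0.062). Sdha was called against P8w with the mean of the kept probes (-0.40, adjusted p = 0.013) and in the deposited log2 table (-0.42, adjusted p = 0.028), and likewise against E8w (-0.35 and -0.37, adjusted p = 0.039 and 0.040). Ndufs3 also differed between the durations, by -0.51 with marked spots kept (adjusted p = 0.0097). The values with marked spots kept rest on spots that the software set apart.

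Some cell markers were called with the binge at 8 weeks, where 7.59% of all genes were higher and 8.75% lower in E8w1B than in P8w. Of 7 Kupffer cell markers 2 were lower in E8w1B than in P8w, with array medians from -0.26 to 0.65 in P8w and -0.75 to 0.38 in E8w1B. Of 7 sinusoidal endothelial markers 1 was higher, Lyve1 by 2.29, and 2 were lower, among them Clec4g (-0.79), and 2 of 5 neutrophil markers were higher. The array medians of the endothelial list ran from 0.04 to 0.39 in P8w and from -0.62 to 0.08 in E8w1B. Those of stellate cells ran from -0.06 to 0.03 and from 0.01 to 0.53, and in both lists the groups overlapped. Of 6 hepatocyte markers 1 was lower. Their part in the subunit results was not tested.

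**Figure D4:**
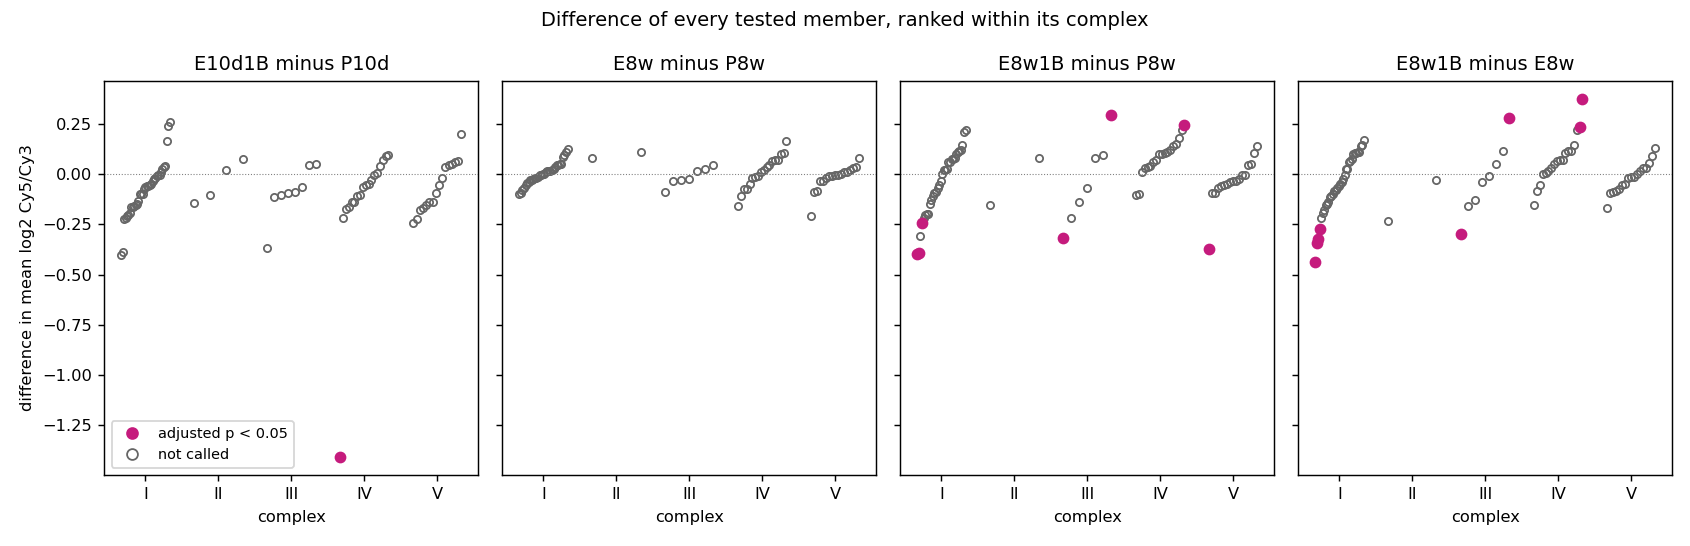
Difference in mean log2 Cy5/Cy3 of each tested subunit gene, ranked within its complex, in the 4 comparisons made within a scan; filled points were called in limma at an adjusted p under 0.05. Cox6b2 at -1.41 in the 10-day comparison stands below all other points, and the panel of E8w against P8w has 0 filled points.

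With repeated binges, 10 of 68 subunit genes were lower and 0 higher in E8wMB than in P8w, where 20.7% of all genes were called (8.03% higher, 12.6% lower); the medians were -0.10 for the subunits and -0.01 for all genes. Here scan and treatment cannot be told apart, and the signs depended on the channel. Ndufa8, an accessory subunit of complex I, was lower by ratio (-0.48, limma adjusted p = 0.017) and higher in Cy5 alone (1.68), since Cy3 was higher by 2.15. Cox7c of complex IV (-0.45 by ratio, adjusted p = 0.013), Atp5a1 (-0.41, adjusted p = 0.012) and Ndufab1, the mitochondrial acyl carrier protein (-0.40, adjusted p = 0.0044), were likewise higher in Cy5 alone, by 1.61, 1.36 and 1.56. The probes of Ndufab1 disagreed: its second probe was higher by ratio (0.36, adjusted p = 0.024).

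Atp5j2, Atp5k and Ndufv3 were lower on both scales against P8w: -0.30, -0.27 and -0.27 in the ratio and -0.34, -1.15 and -0.77 in Cy5 alone. Atp5j2 and Atp5k encode small membrane subunits of ATP synthase, and Ndufv3 a flavoprotein-associated subunit of complex I. The other 2 probes of Ndufv3 gave -0.32 (adjusted p = 0.030) and 0.11 (adjusted p = 0.66) by ratio. The groups did not overlap for 21 genes lower and 0 higher, against 13.8% and 12.4% of all genes.

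Against E8w1B, 18 of 69 subunit genes were lower in E8wMB and 2 higher, where 29.6% of all genes were called (12% higher, 17.6% lower). Groups did not overlap for 17 genes lower and 1 higher, against 13% and 8.45% of all genes. The 3 lowest differences by ratio were Ndufa8 (-0.60, limma adjusted p = 0.0017), Ndufa12 (-0.59, adjusted p = 0.00018) and Cox7c (-0.52, adjusted p = 0.0022), all of them higher in Cy5 alone, by 1.68, 0.44 and 1.77. The other 2 probes of Ndufa12 gave -0.29 (adjusted p = 0.031) and -0.22 (adjusted p = 0.061) by ratio. Atp5g2 was higher by ratio (0.25, adjusted p = 0.0085) and lower in Cy5 alone (-0.08), and Ndufb5 was higher in both (0.29 and 0.30). Uqcr10 was lower in both the ratio (-0.22, adjusted p = 0.049) and Cy5 (-0.46).

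**Figure D5:**
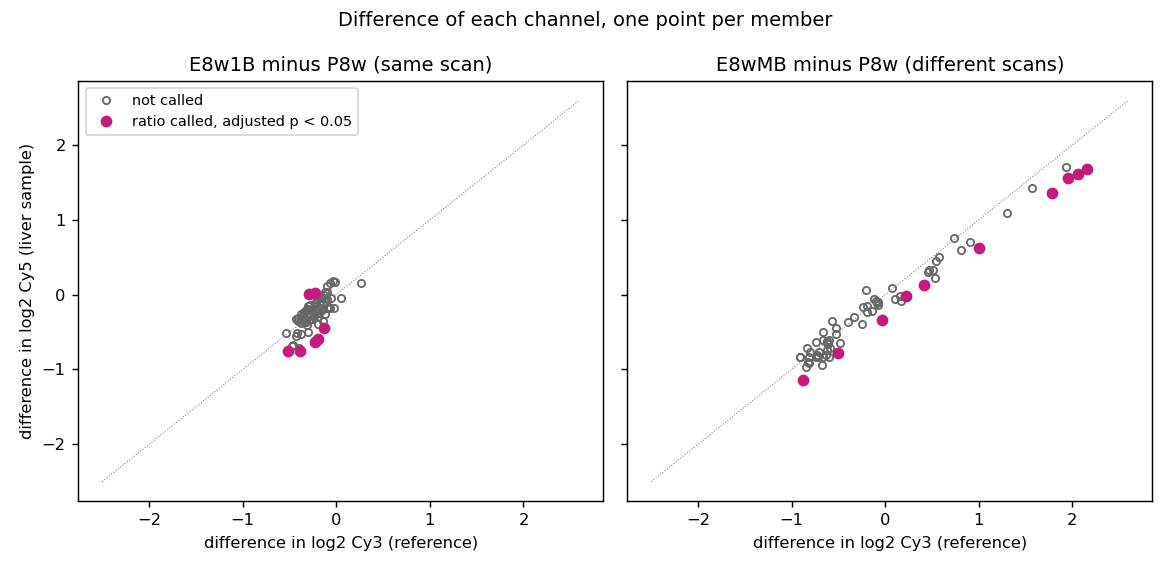
Difference in log2 Cy5 (vertical axis) against the difference in log2 Cy3 (horizontal axis), 1 point per subunit gene, for E8w1B against P8w, scanned together, and E8wMB against P8w, scanned apart; filled points are genes whose ratio was called in limma and the dotted line marks equal differences. In the second panel both channels differ by up to 2.15 (Ndufa8, Cy3), and the called genes lie just under the line.

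Genes that work beside the subunits were followed in the same fits. Of 37 tested assembly factors, 3 rose and 6 fell in E8w1B against P8w, where 7.59% of all genes were higher and 8.75% lower. Cox19 and Cox17, which handle copper for complex IV, rose by 0.57 and 0.26, while Ndufaf1, which assembles complex I, was at -0.71 (limma adjusted p = 0.00033) and Bcs1l, which inserts the Rieske protein Uqcrfs1 into complex III, at -0.43 (adjusted p = 0.0023). At 10 days 1 rose, Uqcc1, a complex III assembly factor, by 0.70 (limma adjusted p = 0.002), where 4.29% of all genes were higher and 2.89% lower. Uqcc1 fell at 8 weeks (-0.44, adjusted p = 0.0029), and the difference of the effects was -1.14 (adjusted p = 0.00021). For that difference 3.37% of all genes were called.

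Of 18 regulators of mitochondrial gene expression, 3 fell at 10 days and 3 at 8 weeks, and 0 rose. Of all genes 2.89% were lower and 4.29% higher at 10 days, and 8.75% and 7.59% at 8 weeks. Polg2, the accessory subunit of the mitochondrial DNA polymerase, was at -0.84 (limma adjusted p = 0.0024) at 10 days and -0.98 (adjusted p = 2.6e-05) at 8 weeks. The coactivators Ppargc1a and Ppargc1b fell by 0.69 and 0.68 at 10 days. Tfam, which packages and transcribes mitochondrial DNA, was at -0.34 (adjusted p = 0.0059) at 8 weeks.

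The mitochondrial ribosome had 77 tested genes. At 8 weeks 17 fell and 1 rose with the binge against P8w, with a median of -0.11, and 18 fell and 2 rose against E8w, also with a median of -0.11; the all-gene medians were 0.02 and 0.01. Of all genes 8.75% were lower and 7.59% higher against P8w, and 8.42% and 8.03% against E8w. Mrpl18 was at -0.65 (limma adjusted p = 9.9e-06) and Mrps28 at -0.48 (adjusted p = 0.00039), and Mrps18b rose by 0.52. At 10 days 4 fell and 1 rose, with a median of -0.07, where 2.89% of all genes were lower and 4.29% higher. 

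Of the citric acid cycle 8 genes were tested in E8w1B against P8w, and Sucla2, a subunit of succinyl-CoA ligase, was at -0.50 (limma adjusted p = 0.0039). In that comparison 16.3% of all genes were called, 7.59% higher and 8.75% lower. At 10 days Cs, citrate synthase, was the only one of 13 called, up by 0.63 (adjusted p = 0.022), where 7.18% of all genes were called. Of 5 electron carriers and donors Etfa, an electron-transferring flavoprotein subunit, was at -0.43 (adjusted p = 0.032) at 8 weeks. Of 14 import and membrane genes Tomm20 (0.50) and Timm23 (0.36), parts of the import pores, rose, and Timm44 (-0.38), which holds the import motor, and Opa1 (-0.28), which fuses inner membranes, fell. E8w against P8w called 0 genes in each of these lists and 0.153% of all genes.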

How the data were processed

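Liver RNA (Cy5) and a reference RNA (Cy3) were compared on 24 Agilent arrays; the labels name the reference as RNA of assorted mouse tissues, and its channel also as liver, so its makeup is uncertain. Per the file headers, the scanner software Feature Extraction 11.5.1.1 (also in the submitters' processing notes) gave median spot and background intensities in both channels, and a log10 ratio of Cy5 over Cy3 made from its processed intensities. The deposited log2 table followed that ratio, array by array.

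New ratios were made from the median intensities. Spots marked as non-uniform or population outliers (1.34% to 7.64% of an array) were dropped, normexp with an offset of 50 corrected the background, and each array was loess-normalised. The tools were R 4.3.3, limma 3.58.1, statmod 1.5.0 and data.table, version 1.17.8. Of 41174 non-control probes, 24387 matched 1 symbol of the GRCm38.p6 gene table through their accession and 16787 none. A probe had to pass the scanner's test for Cy5 signal above background on 3 arrays or more. Each gene was read from its brightest such probe with values on 2 or more arrays in all groups. Where no probe of a gene had such values, its brightest probe was taken. A single limma fit of the 6 group means gave 8 comparisons of genes with 2 or more values in each group, and a gene was called at a Benjamini-Hochberg adjusted p under 0.05, adjusted over all genes tested. The code was tested on simulated data.

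The text names, per comparison and complex, up to 2 called genes in each direction with the lowest adjusted p, the core subunits and the tissue isoforms, and others where it says so. The members and lists were chosen with earlier results of these data known. The alternatives were other normalisations, the deposited table, each channel, other filters, probes and spot flags, slide and replicate blocks, smaller fits, array weights and leaving out arrays. The results of some genes on these lists are not reported here.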

Additional observations from a re-analysis of the deposited data

Results flagged for a closer look

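Of 145 sets of 4 or 5 arrays tested, 9 held an array far from the rest, and chance gives about 1 in 20. Atp5g2 in E8w1B had replicate 1 at -0.37, with the others between -0.15 and -0.07. Cox7c in E8w1B had replicate 5 at 0.00, with the others between 0.48 and 0.67, and Cox6b2 in E8w1B had replicate 2 at -0.32, with the others between -0.07 and 0.02. In E8w, Atp5mpl had replicate 2 at 0.11 below 0.19 to 0.22, Ndufb5 had replicate 4 at -0.09, and Ndufv1 had replicate 4 at 0.31, above 0.00 to 0.02. Cox8b in P8w had replicate 1 at -0.48. In E8wMB, Cox4i2 had replicate 2 at -0.08, and the median of complex IV had replicate 4 at 0.07.

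The effect of ethanol and binge on Cox6b2 differed between 8 weeks and 10 days by 1.63 (limma, adjusted p = 4.6e-05).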

How the results depend on the processing

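Counts of called subunit genes moved with the processing. At 10 days the count was 1, and it was 2 with the scanner log ratio, the deposited table, probes well above background on every array, the mean of probes or the replicate block, 3 with the slide as a random block and 4 with array weights. For E8w1B against P8w it was 7, and 0 with median centring, 4 with the scanner log ratio, 2 in a fit of only these groups and 14 with marked spots kept. Against E8w it was 8, and 0 with median centring, 3 with the scanner log ratio or Cy5 alone, 4 with the deposited table or only these groups and 5 with the slide as a fixed block or array weights. For E8wMB against P8w it was 10, and 3 with median centring and 43 in Cy5 alone; against E8w1B it was 20, and 8 with median centring, 41 in Cy5 alone and 7 with only these groups. For P8w against P10d it was 1, and 14 in Cy5 alone and 0 with only these groups. The difference of effects had 1, and 2 with marked spots kept. The cause was not tested, except that keeping marked spots tested all 83 genes.

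With 1 array left out the counts ran from 1 to 2 at 10 days (2 without replicate 3 of either group), 4 to 8 for E8w1B against P8w (4 without P8w replicate 2 or 4 or E8w1B replicate 2) and 4 to 8 against E8w (4 without E8w replicate 2 or E8w1B replicate 1, 5 without E8w replicate 1 or 5 or E8w1B replicate 2). They ran from 6 to 9 for E8wMB against P8w (6 without E8wMB replicate 3), 11 to 26 against E8w1B (11 to 13 without E8w1B replicate 3 or E8wMB replicate 1, 3 or 4) and 0 to 1 for P8w against P10d (0 without P10d replicate 2), and stayed at 0 for E8w against P8w and 1 for the difference of effects. Over all genes the alternatives called 287 to 1710 at 10 days (1126 in the report's fit), 11 to 74 for E8w against P8w (24), 1238 to 2896 and 1338 to 2929 for E8w1B against P8w (2570) and E8w (2606), 2895 to 7398 and 3192 to 7289 for E8wMB against P8w (3180) and E8w1B (4597), 202 to 1542 for P8w against P10d (237) and 159 to 691 for the difference of effects (520).

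Sign turns were counted for the genes named by the rule where the report's fit or the alternative called the gene. There were 27 such cases, 26 of them in Cy5 alone. Sign turns of genes called in neither fit were not counted. Other subunits such as Ndufa8 in E8wMB against P8w (1.68) were not counted either. In E8wMB against P8w the counted cases were Atp5a1 (1.36), Atp5b (0.45), Cox4i1 (-0.64), Cox4i2 (-0.72), Cox7a2 (0.71), Cox7c (1.61), Cox8a (1.09), Ndufa4 (0.51) and Ndufab1 (1.56). In E8wMB against E8w1B they were Atp5a1 (1.68), Atp5b (0.74), Atp5g2 (-0.077), Atp5md (0.46), Atp5mpl (0.22), Cox4i2 (-0.67), Cox7a2 (1.05), Cox7c (1.77), Cox8a (1.36), Ndufa12 (0.44), Ndufa4 (0.72), Ndufa8 (1.68), Sdhd (0.68) and Uqcrc1 (0.91), and Cox8c with median centring (0.42). In P8w against P10d they were Cox5a (0.53), Cox6b1 (0.50) and Ndufa4 (0.44).

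Correlations of same-numbered arrays ran from -0.25 to 0.36 over the comparisons, from 0.085 to 0.29 at 10 days and from 0.006 to 0.219 for E8w1B against E8w. Arrays of different numbers were not compared, so these values cannot tell whether replicate numbers pair the arrays. A replicate block gave 2 calls at 10 days. A fixed slide block could not be fitted for E8wMB or for P8w against P10d. The number of arrays limits the precision: the median SE of a subunit difference was 0.10 at 10 days and 0.09 for E8w1B against P8w.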
